A study of Mus musculus with 17 samples.

Results

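Pan-endothelial genes are transcribed in the lining cells of most blood vessels and organs, although Emcn is a gene of capillary and venous endothelium. The 10 described here are given by symbol (Pecam1, Cdh5, Kdr, Flt1, Tek, Tie1, Cldn5, Esam, Emcn and Egfl7), and all 10 were found among the 47643 gene symbols of the diaphragm RNA-seq table. The set was chosen by earlier results on the same table, in which endothelial genes differed between LLC + rFibcd1 and LLC and between mice with and without a tumor. All 10 were among the 13305 genes with enough signal to be tested. The data came from the diaphragm, the principal muscle of inspiration, of 17 male C57BL/6J mice aged 4 months, with 1 RNA-seq library per mouse. The 5 Control mice carried no tumor and received mock injections, and the 5 mice of Control + rFibcd1 carried no tumor and received rFibcd1, a recombinant C-terminal fragment of the secreted protein Fibcd1. The 3 LLC mice carried subcutaneous tumors grown from Lewis lung carcinoma cells, an established mouse lung cancer line, and received mock injections, and the 4 mice of LLC + rFibcd1 carried the same tumors and received rFibcd1. Both kinds of injection were given into the peritoneal cavity, so that each of the 17 mice was injected. The study asked how the diaphragm transcriptome responds to a tumor that causes muscle wasting, and whether rFibcd1 limits that response.

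Endothelial cells line every capillary of a muscle, and in a resting vessel they are held together by adherens and tight junctions while receptor tyrosine kinases read growth factors from the neighboring myofibers and mural cells. VEGF-A, made largely by myofibers in skeletal muscle, binds the receptors encoded by Kdr and Flt1, and angiopoietins bind the Tie2 receptor encoded by Tek, whose orphan relative is Tie1. Pecam1, Cdh5, Cldn5 and Esam encode adhesion proteins of endothelial cell contacts, Emcn encodes a sialomucin of the vessel lumen, and Egfl7 encodes a secreted protein of the vessel wall and hosts the microRNA miR-126 in an intron. Whole-tissue RNA was measured, so that fewer endothelial cells and less RNA per endothelial cell cannot be told apart.

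The 250 bases upstream of the RefSeq transcription start (GRCm38.p6) are shown for 3 members, Tek and its relative Tie1, whose ratio is described further on, and Cldn5, which had the widest relative spread over mice. Capitals mark GGAA, the core letters bound by ETS factors such as ERG and FLI1, or its reverse complement TTCC. The Tek window, chr4:94739039-94739288 on the plus strand, held 2 matches and the Tie1 window, chr4:118489850-118490099 on the minus strand, held 7. The Cldn5 window, chr16:18776597-18776846 on the plus strand, held 0.
Tek: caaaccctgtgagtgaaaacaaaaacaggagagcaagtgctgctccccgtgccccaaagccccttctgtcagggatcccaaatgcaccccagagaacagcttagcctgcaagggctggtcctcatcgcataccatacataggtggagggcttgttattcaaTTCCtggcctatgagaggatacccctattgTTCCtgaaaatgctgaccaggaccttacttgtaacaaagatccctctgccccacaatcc
Tie1: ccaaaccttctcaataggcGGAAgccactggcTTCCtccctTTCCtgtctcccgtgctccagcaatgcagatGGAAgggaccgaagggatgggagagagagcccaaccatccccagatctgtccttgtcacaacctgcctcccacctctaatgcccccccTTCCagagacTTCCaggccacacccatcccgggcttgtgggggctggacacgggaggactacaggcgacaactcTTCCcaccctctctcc
Cldn5: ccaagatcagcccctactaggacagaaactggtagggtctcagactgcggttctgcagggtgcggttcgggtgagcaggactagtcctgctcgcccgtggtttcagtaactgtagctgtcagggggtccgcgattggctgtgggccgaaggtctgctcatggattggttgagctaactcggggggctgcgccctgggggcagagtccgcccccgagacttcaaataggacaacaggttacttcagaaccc

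Such matches are common. Of 32851 RefSeq windows of the same length, 93.4% held at least 1 GGAA or TTCC, the median was 3 matches, and 3.82% held as many as Tie1. RefSeq entries were at hand for 7 of the 10 genes and gave 9 windows, since Egfl7 had 3 start sites. The longer form CAGGAAG, searched on both strands and containing the core, was found upstream of Egfl7 and Emcn and in 10.8% of all windows. CCGGAAG and the GATA letters AGATAA were in 0 of the 9 windows, against 6.91% and 9.99% of all windows, and TATAAA was present upstream of Flt1 alone (12.4% of all windows). These are letter matches in a fixed window and say nothing of binding.

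Egfl7 also carries the best-known endothelial microRNA. The mature strand lies at chr2:26591402-26591423 on the plus strand, within Egfl7, and its seed, bases 2 to 8, is in capitals.
mmu-miR-126a-3p: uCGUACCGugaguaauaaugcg
Libraries of polyadenylated mRNA do not measure mature microRNAs, and the Mir126a row was listed at 0 in the table.

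The recovered depth was 50673000 to 54511000 reads per library, and the members rested on 542 reads (Cldn5, lowest mouse) to 12020 reads (Pecam1, highest mouse). Myofiber transcripts, summed over 8 markers such as Ckm and Acta1, reached 43689 TPM or more in every mouse, and skeletal muscle is the labelled tissue. The share of TPM from mitochondrial genes was 47.1% ± 1.09 for Control and 42.9% ± 1.53 for LLC (SD over 5 and 3 mice), and the median difference of all genes tested between these groups was 0.16 on the log2 scale. Differences of members are therefore also given against that median. A single library weighed heavily on LLC against Control, where 4759 genes passed the test with all mice and 24 without LLC replicate 3. No batch was named in the labels, so none could be examined.

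In Control diaphragm the members ranged from 7.19 to 58.4 TPM, a per-length unit that allows levels of different genes to be compared. Cdh5 (VE-cadherin) was highest at 58.4 ± 3.34 TPM (SD, n = 5), followed by Pecam1 at 52.0 ± 3.77, Egfl7 at 37.3 ± 3.10 and Esam at 32.9 ± 2.08. The receptors lay lower, with Tie1 at 30.1 ± 2.52, Kdr at 24.6 ± 3.93, Flt1 at 20.3 ± 2.60 and Tek at 13.4 ± 0.691 TPM. Cldn5 was at 23.4 ± 6.54 TPM and Emcn was lowest at 7.19 ± 0.384 TPM. In this order the Control ranges of neighbors did not overlap between Pecam1 and Egfl7, between Flt1 and Tek, and between Tek and Emcn, whereas the other 6 neighboring pairs overlapped. Pecam1 exceeded Egfl7, Tie1 exceeded Kdr, Flt1 exceeded Tek and Tek exceeded Emcn in all 17 mice. Among the genes tested, mean levels placed the members between the percentiles 50.03 (Emcn) and 91.0 (Cdh5). Over the 5 Control mice, Tek and Emcn varied least, with coefficients of variation of 5.15% and 5.33%, and Cldn5 most, with 28.0%.

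The junction genes were followed first. Pecam1 (CD31, chromosome 11, 106654217 to 106750628, minus strand) encodes a homophilic adhesion molecule of endothelial contacts that is also present on platelets and leukocytes. It measured 46.1, 53.9, 55.9, 50.7 and 53.4 TPM in Control, 49.4, 51.6, 46.7, 47.9 and 50.5 in Control + rFibcd1, 65.2, 60.1 and 64.1 in LLC, and 65.7, 74.7, 75.1 and 63.3 in LLC + rFibcd1. Every mouse with a tumor was above every mouse without one. Esam (chromosome 9, 37528078 to 37538319, plus strand) encodes an immunoglobulin-family protein of tight junctions. It measured 32.8, 34.96, 32.6, 29.8 and 34.7 TPM in Control, 32.0, 28.6, 33.6, 30.7 and 31.3 in Control + rFibcd1, 40.3, 38.1 and 44.1 in LLC, and 40.5, 46.5, 42.3 and 45.6 in LLC + rFibcd1. Here too tumor-bearing and tumor-free mice did not overlap, and the ranges of LLC and LLC + rFibcd1 did.

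Cdh5 (chromosome 8, 104101625 to 104144511, plus strand) encodes the adherens junction cadherin of endothelium. It measured 54.4, 56.9, 62.7, 60.8 and 57.0 TPM in Control, 52.2, 54.5, 52.8, 62.6 and 63.8 in Control + rFibcd1, 67.2, 59.95 and 52.3 in LLC, and 67.0, 68.3, 71.5 and 69.1 in LLC + rFibcd1. The LLC mice were spread across and beyond the Control range, and the 4 LLC + rFibcd1 mice were above all mice without a tumor. Cldn5 (chromosome 16, 18776847 to 18778262, plus strand) encodes the claudin that seals endothelial tight junctions. It measured 33.1, 15.2, 25.1, 22.6 and 20.8 TPM in Control, 22.7, 16.4, 16.9, 14.5 and 23.6 in Control + rFibcd1, 27.6, 21.1 and 17.7 in LLC, and 37.4, 34.3, 33.1 and 38.5 in LLC + rFibcd1. The 4 LLC + rFibcd1 mice were above the 3 LLC mice, and their lowest value, 33.1 TPM, was just above Control replicate 1, which lay apart from the remaining Control mice.

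Of the Tie receptors, Tek (chromosome 4, 94739289 to 94874976, plus strand) measured 13.0, 12.7, 14.1, 14.2 and 13.0 TPM in Control, 13.3, 13.3, 12.4, 12.4 and 13.2 in Control + rFibcd1, 15.2, 14.6 and 14.5 in LLC, and 19.0, 19.99, 19.0 and 15.5 in LLC + rFibcd1. The 3 LLC mice were above every tumor-free mouse, and the 4 LLC + rFibcd1 mice were above the LLC mice. Tie1 (chromosome 4, 118471191 to 118490061, minus strand) measured 27.3 to 33.2 TPM in Control, 25.6 to 30.0 in Control + rFibcd1, 26.8 to 30.5 in LLC and 28.5 to 34.9 in LLC + rFibcd1, and all 4 ranges overlapped. The VEGF receptors behaved like Tie1 in this respect. Kdr (VEGFR2, the main signaling receptor, chromosome 5, 75932827 to 75978458, minus strand) ranged from 20.1 to 28.5 TPM in Control, from 17.8 to 28.9 in Control + rFibcd1, from 20.8 to 26.0 in LLC and from 23.2 to 27.96 in LLC + rFibcd1. Flt1 (VEGFR1, a high-affinity receptor that also acts as a decoy, chromosome 5, 147561604 to 147726011, minus strand) ranged from 17.7 to 24.7 TPM in Control, from 20.5 to 26.0 in Control + rFibcd1, from 20.4 to 21.3 in LLC and from 21.1 to 26.4 in LLC + rFibcd1.

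Emcn (chromosome 3, 137341067 to 137432185, plus strand), the sialomucin endomucin of capillary and venous endothelium, measured 7.23, 6.58, 7.56, 7.46 and 7.13 TPM in Control, 7.53, 7.78, 6.65, 6.55 and 7.59 in Control + rFibcd1, 8.78, 7.62 and 8.19 in LLC, and 8.57, 8.82, 11.2 and 7.91 in LLC + rFibcd1. The LLC mice were just above the Control mice. Egfl7 (chromosome 2, 26580014 to 26593120, plus strand) measured 34.6, 36.2, 39.6, 41.4 and 34.6 TPM in Control, 33.0, 29.9, 30.4, 38.6 and 36.5 in Control + rFibcd1, 46.5, 40.1 and 36.3 in LLC, and 45.7, 47.1, 47.1 and 42.7 in LLC + rFibcd1. The 4 LLC + rFibcd1 mice were above every tumor-free mouse, and LLC overlapped both groups. Exons of Egfl7 overlap exons of Agpat2, a lipid synthesis gene on the opposite strand, and the sources differ on whether the libraries kept strand information, so the Egfl7 values are uncertain. Agpat2 averaged 39.3 TPM in Control (23.9 to 61.5) and 88.9 TPM in LLC (31.5 to 168.5), and its correlation with Egfl7 over the 17 mice was 0.31.

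**Figure D1:**
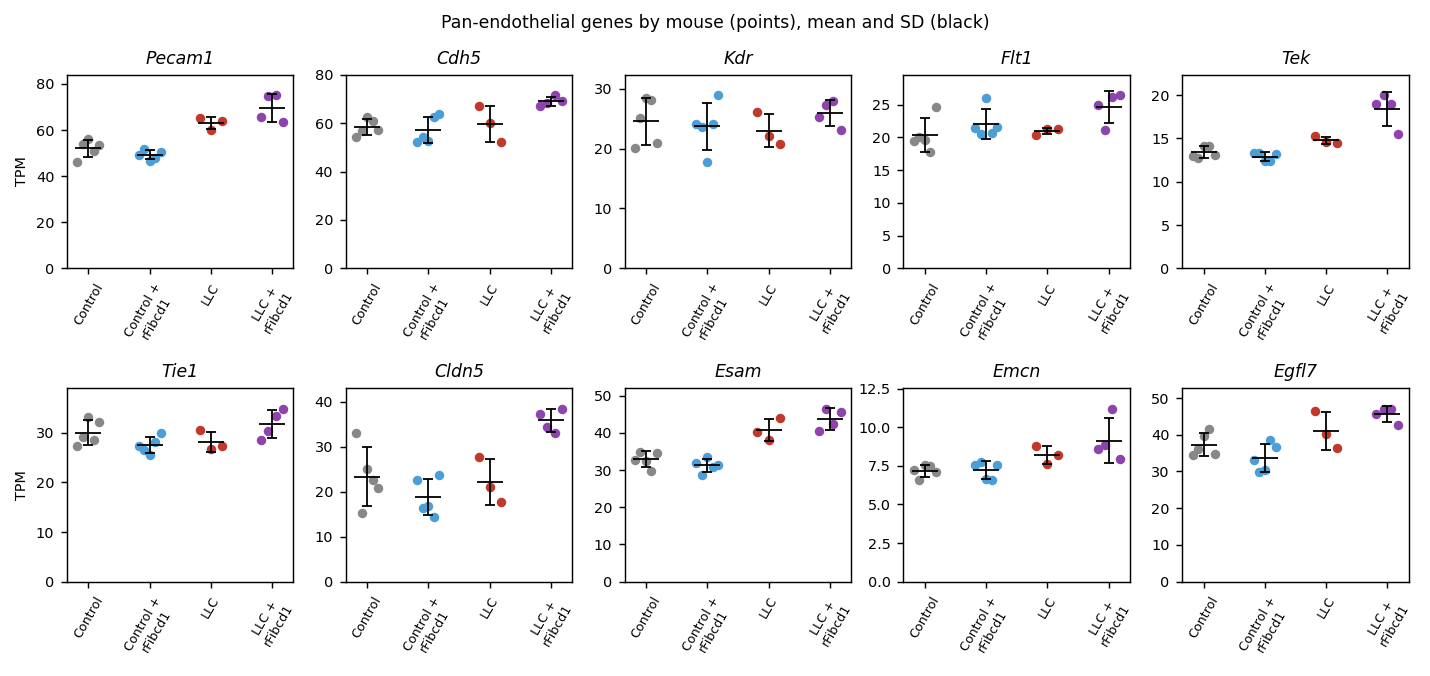
TPM of each pan-endothelial gene on a linear axis from 0, with 1 point per mouse and the group mean with SD in black for the 4 groups of 5, 5, 3 and 4 mice from left to right. In Pecam1, Tek and Esam the 7 mice with a tumor were above the 10 without, and Cldn5 stood at 33.1 to 38.5 TPM in LLC + rFibcd1 against 17.7 to 27.6 TPM in LLC.

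The comparisons with a tumor are given as descriptions. Endothelial genes had been seen to differ between tumor-bearing and tumor-free mice and between LLC + rFibcd1 and LLC when the members were chosen, and LLC against Control and both comparisons of LLC + rFibcd1 with tumor-free mice draw on the same mice. For these 3 comparisons the number of members past the threshold of the fit over all genes (limma, adjusted p under 0.05) is printed beside the share of all genes, nothing is read from it, and no p-value of a member is given. Control + rFibcd1 against Control played no part in the choice and is the only comparison read as a test for the members.

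LLC was set against Control to see the tumor response without rFibcd1. Pecam1 was higher in LLC by 0.28 ± 0.067 on the log2(TPM + 1) scale (SE) and Esam by 0.30 ± 0.066, and these 2 of the 10 members were past the threshold. Of all genes tested, 29.7% were past it upward and 6.02% downward. The median of the members was 0.092, below the 0.16 of all genes, and only Pecam1, Esam and Emcn (0.17 ± 0.089) were above that median. Relative to it, Pecam1 was higher by 0.12 and Esam by 0.14. The sign of the members' median depended on scaling, at -0.087 with median-ratio factors, -0.12 after quantile normalization and -0.015 without mitochondrially encoded genes. In 4 members (Pecam1, Tek, Esam and Emcn) LLC was above Control with no overlap, which held for 33.6% of all genes, and 6.67% lay below without overlap. Kdr, Tie1 and Cldn5 had differences of -0.083, -0.088 and -0.055. Without LLC replicate 3 no member was past the threshold, and Pecam1 and Esam were higher by 0.27 and 0.25. Under other scalings Pecam1 and Esam stayed positive, but the count was 1. That member was Esam without mitochondrially encoded genes, and Tie1 under quantile and median-ratio scaling, where Tie1 was lower in LLC by 0.26 and 0.27.

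Control + rFibcd1 was compared with Control to see the effect of the protein without a tumor. None of the 10 members passed the test by limma, 0 had an unadjusted p under 0.05 by limma or by Dunn's test, and the lowest adjusted p was 0.927. Of all genes tested 0.0% were called higher and 0.0% lower. The median of the members was -0.064 beside -0.060 for all genes, and 0.0091 with median-ratio factors. The widest difference was that of Cldn5, at -0.28 ± 0.18, and Flt1 (0.12 ± 0.085) and Emcn (0.0034) were the 2 members above 0. No member separated the groups, as 0.00752% of all genes did upward and 0.804% downward.

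LLC + rFibcd1 was set against Control, that is, tumor and protein against neither. Pecam1 was higher by 0.41 ± 0.062, Tek by 0.42 ± 0.061 and Esam by 0.40 ± 0.061, equal to 1.33-fold, 1.34-fold and 1.32-fold. These 3 of 10 were past the threshold, as were 2.07% of all genes upward and 1.01% downward. Cldn5 had a larger difference with a wider error, 0.64 ± 0.19, and Emcn (0.30), Egfl7 (0.29), Flt1 (0.27) and Cdh5 (0.24) followed. All 10 differences were positive and all 10 were above the median of all genes (0.059), with a median of 0.29. In 7 members the groups did not overlap, where 5.96% of all genes were so separated upward and 2.92% downward, and Kdr, Flt1 and Tie1 were the ones that overlapped.

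LLC + rFibcd1 was set against Control + rFibcd1, the tumor response among mice that all received the protein. The junction genes Pecam1, Cdh5, Cldn5 and Esam as well as Tek, Emcn and Egfl7 were past the threshold, and Kdr, Flt1 and Tie1 were not. Cldn5 was higher by 0.92 ± 0.19 or 1.89-fold, the widest difference among members. Pecam1 was higher by 0.49 ± 0.062, Tek by 0.47 ± 0.061 and Esam by 0.47 ± 0.061. Egfl7 differed by 0.43 ± 0.085, Emcn by 0.29 ± 0.081 and Cdh5 by 0.27 ± 0.074. Beside the 7 of 10 stand 7.02% of all genes past the threshold upward and 1.04% downward. Together these were 1072 genes, which became 476 without LLC + rFibcd1 replicate 3 and 2895 without Control + rFibcd1 replicate 1. In the same 7 members the groups did not overlap, where 7.43% of all genes were separated upward and 1.48% downward. The median was 0.36 against 0.11 for all genes, and 0.24, 0.25 and 0.31 against 0.0025, -0.029 and 0.063 under median-ratio, quantile and mitochondria-free scaling. Tie1 (0.20 ± 0.071), Flt1 (0.15 ± 0.090) and Kdr (0.14 ± 0.13) were the 3 lowest. Under median-ratio, quantile and mitochondria-free scaling Egfl7, Emcn and Cdh5 were not past the threshold. Cdh5 was lost without Control + rFibcd1 replicate 2 or 3 or LLC + rFibcd1 replicate 2, 3 or 4, and Emcn without Control + rFibcd1 replicate 2, 3, 4 or 5, Control replicate 1 or 5, or LLC + rFibcd1 replicate 2 or 3.

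**Figure D2:**
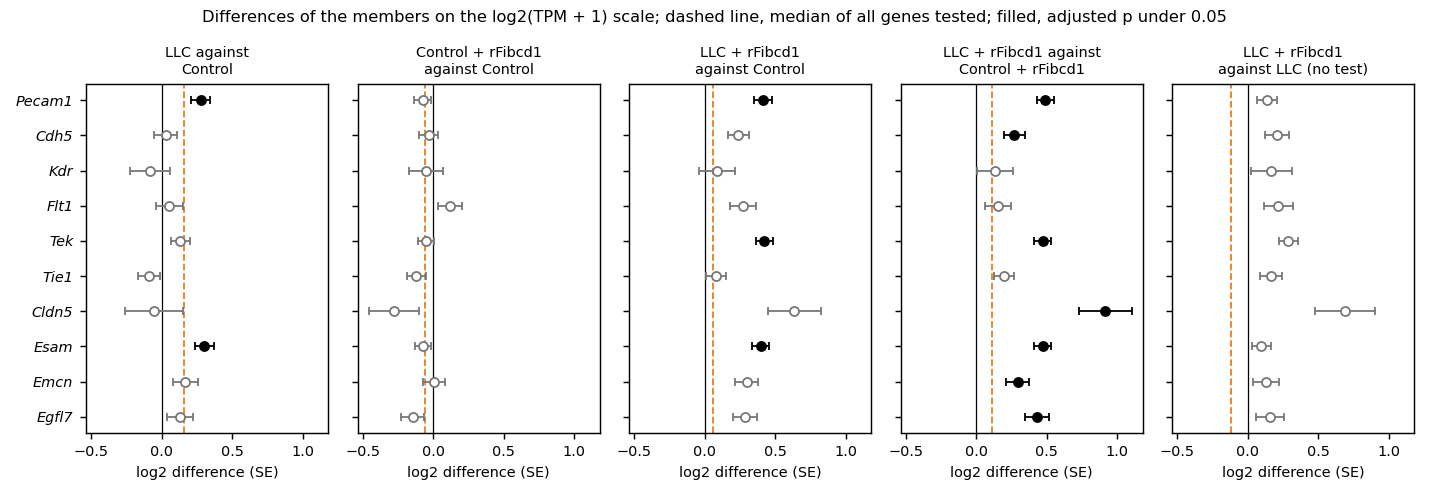
Difference of each member on the log2(TPM + 1) scale with its SE in 5 comparisons, filled where the adjusted p was under 0.05 and open otherwise, with the median of all genes tested as a dashed line. Filled points numbered 2, 0, 3 and 7 in the first 4 panels from the left, and under other scalings Cdh5, Flt1, Tek, Emcn and Egfl7 changed sign in LLC against Control. Fills are descriptions except in the second panel, Control + rFibcd1 against Control.

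Tumor-bearing mice with and without rFibcd1 are described in the same way. All 10 members were higher on average in LLC + rFibcd1 than in LLC, by 0.097 (Esam) to 0.69 (Cldn5). The median was 0.17, beside -0.11 for all genes, and under both median-ratio and quantile scaling the members' median was 0.29, beside -0.011 and 0.061 for all genes. Cldn5 averaged 35.8 ± 2.50 TPM with rFibcd1 and 22.1 ± 5.02 without (SD over 4 and 3 mice), and Tek 18.4 ± 1.97 and 14.8 ± 0.400. These 2 members had no overlap between the groups, a pattern that 5.26% of all genes had upward and 9.3% downward. Summed over the 10 members, TPM was 299.5 ± 12.2 in Control, 283.5 ± 14.9 in Control + rFibcd1, 322.0 ± 22.4 in LLC and 373.7 ± 11.1 in LLC + rFibcd1. The 4 LLC + rFibcd1 mice had sums of 362.4 to 387.0 TPM, above the other 13 mice, whose highest was an LLC mouse at 347.7 TPM. All tumor-bearing against all tumor-free mice gave a median of 0.27, against 0.13 for all genes, and the members' median was 0.12, 0.10 and 0.19 under median-ratio, quantile and mitochondria-free scaling, beside 0.0058, -0.057 and 0.069. It left 3 members without overlap, where 1.74% of all genes were separated upward. The difference between the effect of rFibcd1 with a tumor and without one was positive for all 10 members, from 0.10 (Flt1) to 0.97 (Cldn5), with a median of 0.23 beside -0.058 for all genes.

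Members were also set against each other within a mouse. With each mouse's mean over the 10 members subtracted, which forces some down where others go up, Tie1 was lower in LLC than in Control by 0.18 with no overlap (0.021 to 0.075 in LLC, 0.13 to 0.34 in Control), and Cldn5 was higher in LLC + rFibcd1 than in LLC by 0.48 and than in Control + rFibcd1 by 0.55, again with no overlap. In every other member and comparison the groups overlapped on this scale. The ratio of Tek to Tie1 averaged 0.448 ± 0.0376 over the 5 Control mice, 0.470 ± 0.0295 over the 5 of Control + rFibcd1, 0.526 ± 0.0238 over the 3 of LLC and 0.585 ± 0.103 over the 4 of LLC + rFibcd1 (mean and SD). The 3 LLC ratios were above the 5 Control ratios, and those of LLC + rFibcd1 overlapped with Control. Flt1 to Kdr was 0.852 ± 0.223 in Control and 0.923 ± 0.124 in LLC, with all 4 groups overlapping. Cldn5 to Cdh5 was 0.367 ± 0.0383 in LLC and 0.520 ± 0.0457 in LLC + rFibcd1 with no overlap, and Pecam1 to Cdh5 was 0.891 ± 0.0508 in Control and 1.07 ± 0.140 in LLC with no overlap. A ratio within a library is not touched by the scaling of TPM, and these ratios were not tested.

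**Figure D3:**
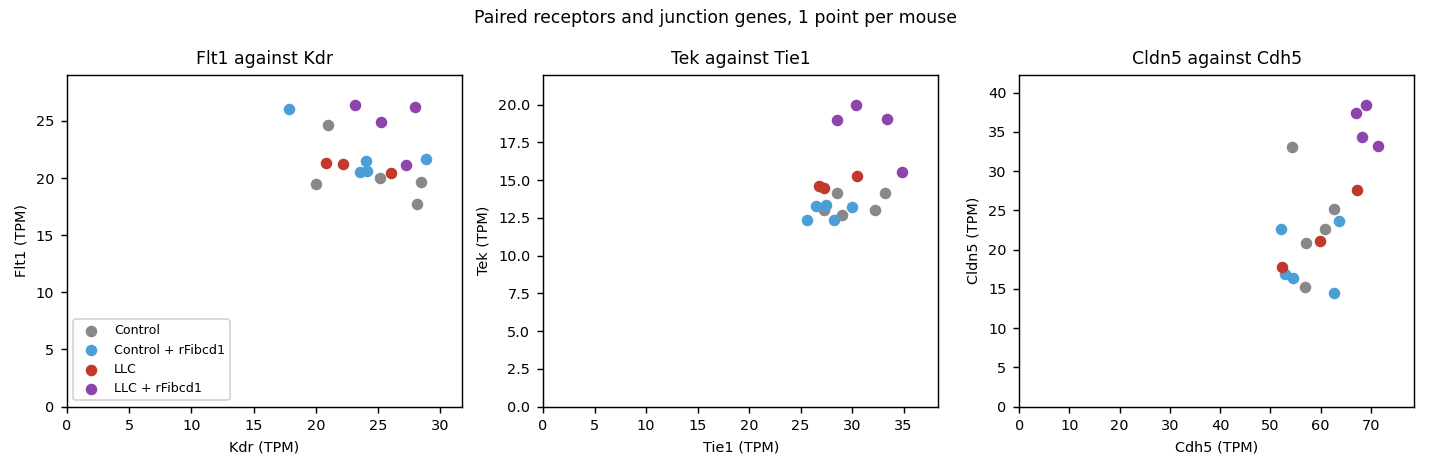
TPM of Flt1 against Kdr, Tek against Tie1 and Cldn5 against Cdh5, 1 point per mouse colored by group, with linear axes from 0. Tek lay at 15.5 to 19.99 TPM in LLC + rFibcd1 over Tie1 values of 28.5 to 34.9 TPM, and the Flt1 and Kdr points of the 4 groups were intermixed.

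Over the 17 mice, the 45 pairs of members had Pearson correlations of log2(TPM + 1) from -0.31 (Kdr with Flt1) to 0.90 (Pecam1 with Tek), with a median of 0.56. With the group means subtracted the median was 0.19, 15 pairs were negative and the range went from -0.61 (Kdr with Flt1) to 0.87 (Cdh5 with Egfl7). Kdr and Flt1, the receptors for the same ligand, were thus the most negative pair in both views. Flt1 had the lowest median correlation with the other members over all mice (0.31), and Esam the lowest within groups (-0.32). These points share libraries and groups, and the correlations are given as a description.

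**Figure D4:**
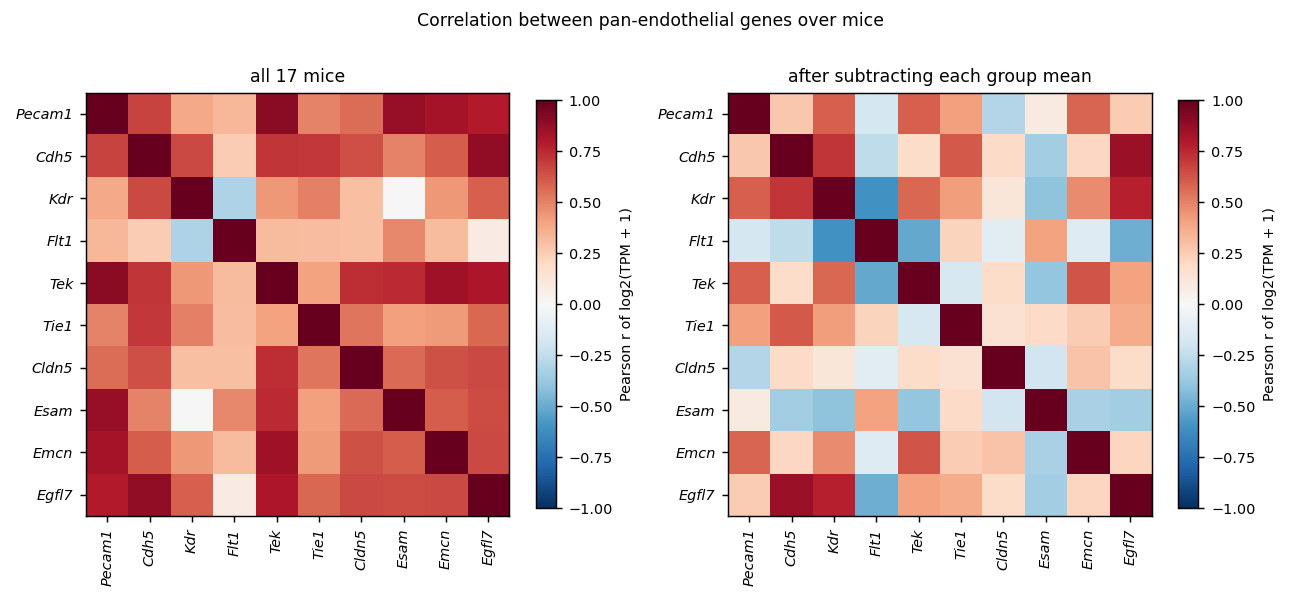
Pearson correlation of log2(TPM + 1) between members over all 17 mice (left) and after subtraction of each group mean (right), on a color scale from -1 to 1. Of 45 pairs, 1 was negative over all mice and 15 were negative within groups, with Kdr and Flt1 lowest in both panels.

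Among the other genes tested, those most like the mean z-score of the members over the 17 mice were Col4a2 (r = 0.95), Tmem44 (0.93), Col4a1 (0.93), Grrp1 (0.92), Cbfa2t3 (0.92), Mmrn2 (0.91), Guk1 (0.91) and Fam101b (0.91). Col4a1 and Col4a2 encode the collagen IV chains of basement membrane, at 67.1 and 51.0 TPM on average, and Mmrn2 encodes an endothelial matrix glycoprotein. Col4a2 was higher in LLC + rFibcd1 than in LLC by 0.35, and Col4a1 by 0.30, beside a median of -0.11 for all genes. Both were picked for following the members, which were higher there too. Taken singly, Pecam1 was closest to Ecscr (0.96), an endothelial surface protein, Tek and Emcn to Plekhg1 (0.95 and 0.85), Esam to Tmem184b (0.95), Egfl7 to Cd93 (0.89), an endothelial lectin-like receptor, and Cldn5 to Lrrc32 (0.87). Flt1 was closest to Egln3 (0.91), a hypoxia-inducible prolyl hydroxylase, Kdr to Plxdc1 (0.88), Cdh5 to Sept4 (0.88) and Tie1 to Arap3 (0.82). These are the highest of many correlations over 17 mice and were chosen for that.

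Further endothelial lists were read in the same fit, with the same mice, so their calls are no independent support either. Genes named for LLC against Control, here and in the later lists, were picked for passing there where any did. Their adjusted p-values in that comparison are therefore descriptions. Of 22 other general endothelial genes, 6 rose and 1 fell in LLC against Control, beside 29.7% and 6.02% of all genes, with a median of 0.14 beside 0.16 for all genes. Under median-ratio, quantile and mitochondria-free scaling 3, 2 and 3 rose and 2 fell each time, with medians of -0.037, -0.081 and 0.035. Vwf, the adhesive glycoprotein stored in endothelial granules, was at 5.32 to 6.14 TPM in Control and 9.28 to 10.7 in LLC, a rise of 0.72 ± 0.13 (adjusted p = 0.00825). Mcam (CD146), Clec14a and Eng (endoglin, a TGF-beta co-receptor) rose by 0.58 (adjusted p = 0.0156), 0.53 (adjusted p = 0.0121) and 0.44 (adjusted p = 0.0343). In LLC + rFibcd1 against Control + rFibcd1, 9 of the 22 rose, beside 7.02% of all genes, with a median of 0.38, and 4, 4 and 6 rose under the same 3 scalings. The gene that fell in LLC against Control was Ptprb (VE-PTP, the phosphatase that restrains Tie2), by 0.23 ± 0.088 (adjusted p = 0.0495). The calls in LLC against Control were lost without LLC replicate 3, where the adjusted p of Vwf was 0.0569 and the list's median was 0.17. The 9 of the other comparison stayed 9. That comparison holds no LLC mouse, so leaving 1 out could change it only through the shared spread.

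Among the ligands of the member receptors, Vegfa and Angpt1 fell in LLC against Control. Vegfa measured 144.4 to 175.5 TPM in Control and 127.6 to 132.3 in LLC with no overlap, and fell by 0.29 ± 0.10 (adjusted p = 0.0374). Its mean with tumor and rFibcd1 was 185.6 ± 31.3 TPM, and with rFibcd1 alone 135.2 ± 8.04 (SD over 4 and 5 mice), a rise of 0.44 ± 0.092 (adjusted p = 0.0109) that did not pass under median-ratio or quantile scaling (0.121 and 0.0904). It was the only one of 8 VEGF ligands and co-receptors to pass in either comparison, whereas 2 fell in LLC under each of the 3 other scalings. Angpt1, the Tie2 agonist, was at 10.6 to 16.3 TPM in Control, 7.58 to 8.30 in LLC and 7.49 to 12.7 in LLC + rFibcd1, and from the first to the second of these groups it fell by 0.60 ± 0.16 (adjusted p = 0.0147). With Ptprb, 2 of 4 tested genes of the angiopoietin list fell, where 6.02% of all genes did, and the 2 did so under each other scaling too, with 1863 (median-ratio), 3175 (quantile) and 1465 (mitochondria-free) genes called lower there. A list of 11 tested junction genes beyond the members had a median of 0.10 in LLC + rFibcd1 against Control + rFibcd1, beside 0.11 for all genes. Their median became -0.024, -0.020 and 0.039 under median-ratio, quantile and mitochondria-free scaling. Of the list 1 rose (Jup, plakoglobin, by 0.23, adjusted p = 0.0347, a call lost under each of the 3 other scalings). In LLC + rFibcd1 against LLC their median was -0.085, beside -0.11 for all genes, and 3 of 11 were positive. Without LLC replicate 3 the adjusted p of Vegfa was 0.113, of Angpt1 0.0762 and of Ptprb 0.144.

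By vessel type, the venous and venular list had the highest median of 5 lists in LLC against Control, with 6 of 7 tested genes higher and a median of 0.92. For this and the other vessel lists, 29.7% of all genes called higher is the background share, which 2 of 7 or 1 of 8 does not exceed. It held Ackr1, the chemokine-binding receptor of venules (1.46 ± 0.27, adjusted p = 0.00825), Selp (1.24), Lrg1 (0.95) and Vcam1 (0.92), and Selp is also made by platelets. Of 7 arterial genes 2 rose, Gja5 by 0.40 ± 0.091 (adjusted p = 0.0112) and Sema3g by 0.33 ± 0.090 (adjusted p = 0.0153), with 1, 0 and 1 of the list past the test under median-ratio, quantile and mitochondria-free scaling. Of 8 capillary genes Cd300lg alone rose (0.31 ± 0.10, adjusted p = 0.0274), and under each of these scalings 0 did. The list's median was 0.27, and 0.089, 0.047 and 0.16 under them, and it holds genes such as Fabp4 and Cd36 that adipocytes share. The 6 lymphatic genes had a median of -0.15, which was -0.30, -0.38 and -0.26 under the 3 scalings and -0.019 without LLC replicate 3, and 0 passed (2 were lower under quantile scaling). Of these, Ccl21a, a chemokine of lymphatic endothelium, was at 218.1 ± 18.8 TPM in Control and 204.4 ± 35.5 in LLC. Plvap and Esm1, from 6 genes of shear and tip cell states, rose by 1.26 (adjusted p = 0.0112) and 0.75 (adjusted p = 0.00964). These calls too were lost without LLC replicate 3, where Ackr1 differed by 1.55 with an adjusted p of 0.0566.

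Markers of some other cells were higher in LLC than in Control. The 4 leukocyte markers, which matter because leukocytes also carry Pecam1, summed to 19.0 to 65.1 TPM in Control, 13.4 to 102.4 in Control + rFibcd1, 139.8 to 177.4 in LLC and 36.0 to 153.3 in LLC + rFibcd1, and all 4 rose in LLC against Control, where 29.7% of all genes did. The 6 platelet markers summed to 23.0 to 44.4 TPM in Control and 41.4 to 63.5 in LLC, and 0 of the 5 tested passed, with Pf4, a platelet chemokine, at a difference of 0.64 (adjusted p = 0.165). Macrophage, neutrophil and B cell markers rose in LLC in 3, 5 and 5 of 5 genes. Under median-ratio, quantile and mitochondria-free scaling 2, 3 and 2 macrophage, 4, 4 and 5 neutrophil and 3, 5 and 1 B cell markers did. Adipocyte markers summed to 55.6 to 361.4 TPM in Control and 187.8 to 953.8 in LLC, and 0 of 4 passed. None of 5 fibroblast and 4 mesothelium markers passed either, with medians of 0.27 and 0.72. Red cell markers summed to 3848 to 20311 TPM in Control and 14168 to 46936 in LLC, so that the groups overlapped, and 1 of 5 rose (Alas2, a heme synthesis enzyme, by 1.56, adjusted p = 0.0436), a call lost under each of the 3 scalings. Of 9 pericyte and smooth muscle genes, 4 rose and 1 fell, beside 29.7% and 6.02% of all genes. The counts were 0 and 2 under median-ratio scaling and 1 and 2 under both other scalings. Acta2, the smooth muscle actin, was uneven in LLC, at 65.1 to 223.3 TPM against 45.8 to 67.2 in Control. Of 8 myofiber genes 4 fell, beside 6.02% of all genes, and Myh1 fell by 0.64 ± 0.13 (adjusted p = 0.0093). Under median-ratio, quantile and mitochondria-free scaling 5, 3 and 4 fell, with 1863, 3175 and 1465 of all genes called lower there. Without LLC replicate 3 none of these markers passed in LLC against Control. Leukocyte, macrophage, neutrophil and B cell medians were then 1.72, 0.91, 1.64 and 2.67, beside 1.83, 0.89, 1.64 and 2.75 with all mice. Platelet, red cell and mesothelium medians were 0.37, 0.90 and 0.50, beside 0.55, 1.41 and 0.72. In LLC + rFibcd1 against Control + rFibcd1 all 5 neutrophil markers rose, but 1, 0 and 1 did under median-ratio, quantile and mitochondria-free scaling. In 0 of the 5 did the groups separate without overlap. Of all genes, 7.02% were called higher in that comparison and 7.43% lay higher without overlap. Against Control, all 5 neutrophil markers rose in LLC + rFibcd1 with no overlap (median 2.11), and 4 did under each of the same scalings. Against Control, 2.07% of all genes were called higher and 5.96% lay higher without overlap. Of the 4 leukocyte, 5 B cell, 5 macrophage and 5 tested platelet markers 0 passed in that comparison. No marker of these lists was at 0 in all mice. In LLC + rFibcd1, where Pecam1 averaged 69.7 TPM against 63.1 in LLC, the leukocyte sum averaged 82.7 TPM against 154.1 and the neutrophil sum 104.5 TPM against 77.7. The part of other cells in the values of the members was not tested.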

How the data were processed

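RNA-seq of diaphragm gave 1 library for each of 17 mice. The authors trimmed and filtered the reads, mapped them to GRCm38 (mm10 in the submitters' processing notes) and took gene counts, all within CLC Genomics Workbench. What was deposited is TPM, for which the authors divided reads by gene length and scaled each library to the same sum. The annotation release is not given in the sources used here. The labels name a stranded kit and the methods an unstranded one, so strandedness was left unsettled. Groups and replicate numbers came from the titles, and 0 table columns lacked a sample.

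The members and gene lists were chosen with earlier results of these data known. Differences were fitted with limma 3.58.1 (R 4.3.3) on log2(TPM + 1), a scale that understates changes of low genes, over the 13305 symbols that reached 1 TPM in 3 or more mice (24693 of 47643 were at 0 throughout). All 4 groups shared the spread (13 residual degrees of freedom, empirical Bayes with trend). Tests were two-sided and Benjamini-Hochberg adjusted over all genes tested, with a threshold of 0.05. Dunn's rank comparison, which the authors used, served as an alternative, since its normal approximation is weak with so few mice per group. The fit was tested on simulated data. Other alternatives were the pseudocount (0.1 TPM), the filter, 3 scalings, fits of the compared groups alone, a replicate block and leaving out each mouse. Genes named beside the members were up to 4 per list with the largest passing change in LLC against Control (or, with no passing gene, the most abundant), and the genes most correlated with the members, namely 8 for their mean and 1 for each member. The genes Pf4 and Ccl21a were named by the rule for lists with no passing gene.

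Depth was recovered from low values, which are whole multiples of 1 read at a given gene length (GENCODE vM21, 94.6% of symbols matched). Between 81.5% and 84.8% of those in a library were within 0.02 of a whole read. It is an estimate that entered no test. Coordinates are 1-based on GRCm38. Sequences are from RefSeq (GRCm38.p6). For further junction genes, LLC against Control is not reported here.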

Additional observations from a re-analysis of the deposited data

Results flagged for a closer look

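Flt1 measured 26.0 TPM in Control + rFibcd1 replicate 3, apart from the other 4 mice of its group, of which the next highest had 21.6 TPM. The gap was 0.799 of the range of the group (Dixon's test). It was 1 of 30 such tests of members in groups of 4 or 5 mice, and chance gives about 1 in 20.

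In Pecam1 and Tek, LLC + rFibcd1 lay higher than LLC on average and Control + rFibcd1 lower than Control. Cdh5, Kdr, Tie1, Cldn5, Esam and Egfl7 had the same signs. The widest difference was that of Cldn5, at 0.69 with a tumor and -0.28 without one, which makes 0.97. Pecam1 differed by 0.14 with a tumor and by -0.075 without one, which makes a difference of 0.21 on the log2(TPM + 1) scale. Tek differed by 0.29 and by -0.051, a difference of 0.34. The difference between these effects was not tested for any member.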

How the results depend on the processing

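Numbers of members past the threshold depended on scaling, on 1 mouse and on the test. In the 3 comparisons of tumor-bearing groups these numbers are descriptions, as stated above. In LLC against Control, where 2 were past the threshold, Esam alone was under mitochondria-free scaling. Under median-ratio and quantile scaling neither of the 2 was, and the 1 counted was Tie1, which was lower. The replicate block and Dunn's test gave 0. Leaving out single mice gave 0 (without LLC replicate 3) to 3. The 3 in LLC + rFibcd1 against Control became 0 with Dunn's test and stayed at 3 to 4 in the fits without a mouse. The 7 in LLC + rFibcd1 against Control + rFibcd1 became 4 under each of those scalings and 0 with Dunn's test, and 5 to 7 without single mice. Dunn's test called 0 of all genes in every comparison and gives no median. Control + rFibcd1 against Control stayed at 0 under all alternatives.

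The median from LLC to LLC + rFibcd1 (0.17) was 0.29 under both median-ratio and quantile scaling, and 0.14 to 0.24 without single mice, highest without LLC replicate 1. That of tumor-bearing against tumor-free mice (0.27) was 0.12, 0.10 and 0.19 under median-ratio, quantile and mitochondria-free scaling, and 0.23 to 0.29 without single mice. That of the rFibcd1 effect with against without a tumor (0.23) was 0.20 to 0.32 without single mice. In LLC against Control the median of all genes was 0.16, and the same 3 scalings made it 0.0055, -0.099 and 0.081, and 3958 higher with 801 lower genes became 2078 with 1863, 1510 with 3175 and 2629 with 1465. For the 3 scalings of LLC + rFibcd1 against Control + rFibcd1, 934 with 138 became 229 with 293, 183 with 284 and 383 with 198. For LLC + rFibcd1 against Control, 276 with 134 became 197 with 159, 143 with 223 and 170 with 185. Fits of the compared groups alone called 260 genes there (410 with all groups) and 304 in LLC + rFibcd1 against Control + rFibcd1 (1072 with all groups). Without single mice the genes called ranged from 170 to 600 in the first of these 2 comparisons and from 476 to 2895 in the second.

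Members not past the threshold changed sign in LLC against Control as follows. Cdh5 was at -0.15, -0.12 and -0.079 and Flt1 at -0.12, -0.14 and -0.051 (median-ratio, quantile, mitochondria-free). Tek was at -0.040 and -0.10 and Egfl7 at -0.051 and -0.040 (median-ratio, quantile), and Emcn at -0.11 (quantile). Cdh5 was at -0.057 without LLC replicate 1, and Cldn5 at 0.077 without Control replicate 1 and 0.086 without LLC replicate 3 (from -0.22 over all such fits). In Control + rFibcd1 against Control, median-ratio scaling gave 0.042 for Cdh5, 0.019 for Kdr and 0.020 for Tek, and quantile scaling 0.0029 for Tek. Kdr was at 0.041 without Control + rFibcd1 replicate 3 and also above 0 without Control replicate 3, in a range from -0.13. Emcn was at -0.011, -0.021 and -0.013 without Control + rFibcd1 replicate 1, 2 and 5, and -0.024 without Control replicate 2, in a range up to 0.033. The causes were not tested.

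The replicate numbers do not pair the mice. Same-numbered mice had correlations of deviations from group means of -0.46 to 0.49 (median -0.061, 22 pairs), and 1 of 17 mice matched its own number best. With the replicate block, members past the threshold numbered 0, 0, 3 and 5 in the 4 comparisons of the report (2, 0, 3 and 7 without the block). Over all genes 5, 0, 173 and 492 passed (4759, 0, 410 and 1072 without the block).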
